A study of Sus scrofa with 10 samples.

Results

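A set of 7 genes was examined in the longissimus lumborum, the loin muscle of the pig, because their level differed many-fold from pig to pig, often within 1 breed. They were CNNM3, STMN3, C2CD3, SCARF1, SRARP, WDR91 and ENSSSCG00000032599, which carries an identifier and no symbol, and they made up 7 of the 25880 genes in the deposited table. The genes were picked by hand from the 10 pigs' own normalised counts, so their spread over pigs and their difference between breeds are given as a description, with no test. The comparison behind these values was the muscle of Alentejano (AL) against that of Bísaro (BI), 2 Portuguese local breeds of distinct genetic background.

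The pigs were purebred castrated males, 5 AL (AL44, AL46, AL49, AL52 and AL63) and 5 BI (BI25, BI34, BI36, BI37 and BI42), and the labels name no treatment. The labels give a carcass weight of 150 kg for every pig, and both breeds lived free-range on commercial diets. Each pig gave 1 muscle sample and 1 mRNA library. A breed was therefore represented by 5 animals of 1 sex from 1 trial, and breed cannot be told apart from anything else that differed between those 2 sets of 5 pigs.

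Between 2298045 and 3343194 reads were counted on genes per pig, and 3 reads corresponded to a normalised count of 2.47 to 3.39. Fibre genes marked the tissue as skeletal muscle. The summed normalised count of 5 of 8 fibre markers found in the table (ACTA1, CKM, TNNT3, TNNI2 and DES) was 16361 to 33791 in AL and 29699 to 47801 in BI. AL44 stood apart with the lowest fibre sum, 16361, and the highest sum of leukocyte markers, 67.0 against 27.6 to 36.7 in the other AL pigs. Most of that leukocyte sum was 1 gene, CD68, which reached 60.4 in AL. CD3E, CD79B and LYZ had 0 reads in all pigs, and PTPRC had 3 reads in all. AL46 held the highest fibroblast sum, 103 against 14.2 to 43.3 in the other 9 pigs. In bulk muscle, fewer cells of a type and less RNA per cell cannot be told apart.

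The named members act in unrelated parts of the cell. CNNM3 belongs to the cyclin M family of membrane proteins, which take part in magnesium transport and bind the PRL phosphatases (PTP4A genes). STMN3 is a stathmin, a protein that binds tubulin and favours microtubule disassembly, and it is best known from neurons. C2CD3 is a centriole protein needed for building the primary cilium, and SCARF1 is a scavenger receptor of endothelial and phagocytic cells that takes up modified lipoproteins. SRARP binds steroid receptors and modulates their activity. WDR91 works on endosomes with the small GTPase RAB7A as they mature.

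The label of genes switched on or off suited the values only in part. Of the 70 values (7 genes in 10 pigs), 3 were at 0 reads and 15 were at 3 reads or fewer. No pig was at 0 for CNNM3, STMN3, WDR91 or ENSSSCG00000032599. CNNM3, STMN3 and SCARF1 had their largest gap between a set of 4 pigs and a set of 6, 2.44, 2.60 and 1.39 wide on the log2(normalised count + 1) scale. For the other 4 genes the largest gap set 1 pig apart from the rest.

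**Figure D1:**
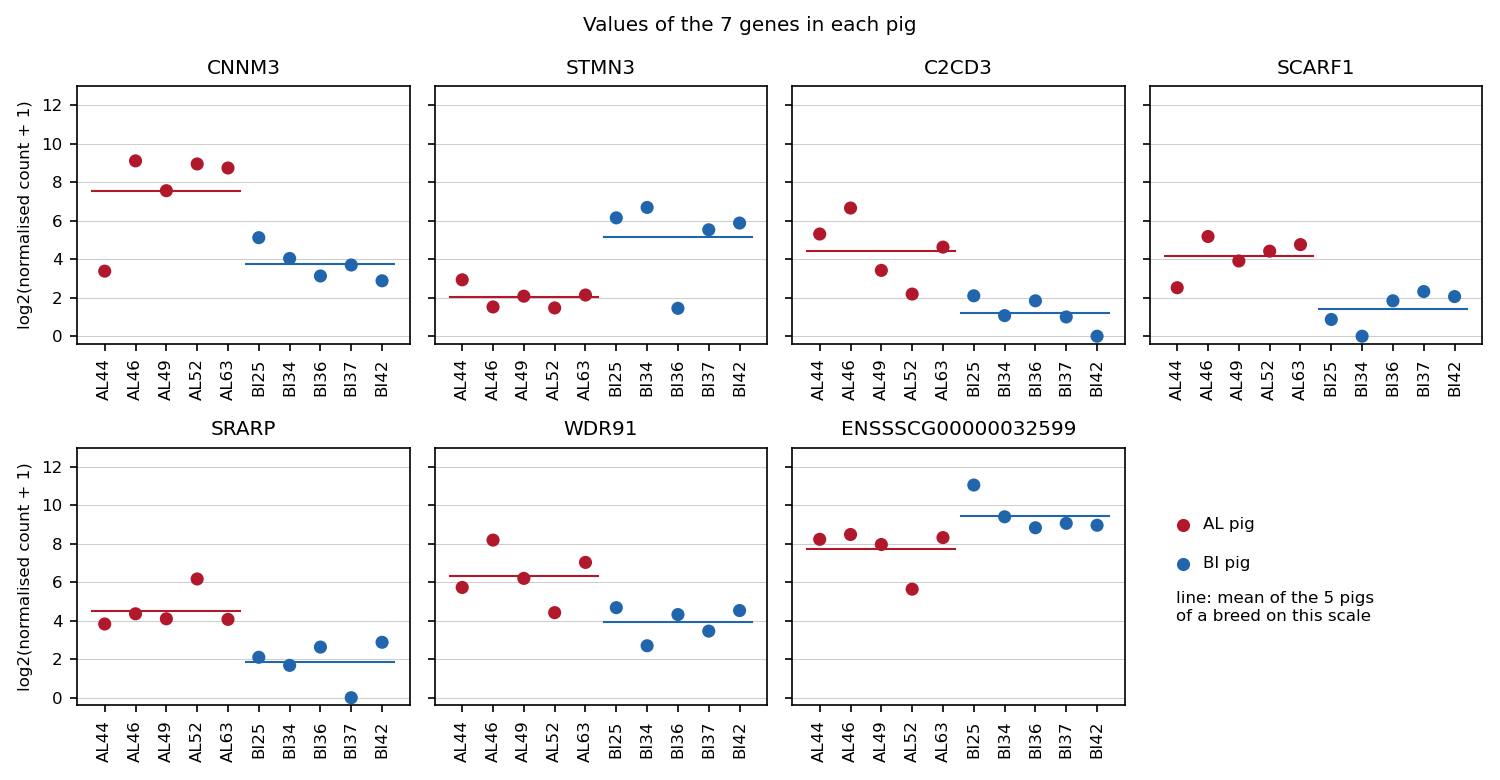
Level of each gene in each pig, as log2(normalised count + 1), with AL pigs in red, BI pigs in blue and a line at the mean of the 5 pigs of a breed on this scale. AL44 sat with the BI pigs for CNNM3 (3.38), BI36 sat with the AL pigs for STMN3 (1.45), and the breeds did not overlap for C2CD3, SCARF1, SRARP and ENSSSCG00000032599.

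CNNM3 was high in 4 AL pigs and low in the remaining 6 pigs. Its normalised count was 9.44 in AL44, 552 in AL46, 188 in AL49, 494 in AL52 and 428 in AL63, against 33.8 in BI25, 15.4 in BI34, 7.76 in BI36, 12 in BI37 and 6.34 in BI42. AL44 lay inside the BI range, so the breeds overlapped, and no pig lay between 33.8 and 188. The low set was still measured above 0, with 6 to 41 reads per pig. The 10 reads of AL44 had an exact 95% Poisson interval of 4.80 to 18.4 reads, and the 174 reads of AL49, the lowest pig of the high set, one of 149 to 202. Intervals of this kind cover counting error only. The means were 334 ± 228 in AL and 15.1 ± 11 in BI (SD, n = 5 each), a difference of 3.78 on the log2(normalised count + 1) scale that was 4.82 without AL44. AL44 was also the pig with the lowest fibre marker sum, and the part of muscle content in its CNNM3 value was not tested.

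STMN3 showed the opposite arrangement, high in 4 BI pigs and low in the other 6. The normalised count reached 70.0 in BI25, 102 in BI34, 1.72 in BI36, 45.1 in BI37 and 58.1 in BI42, against 6.61 in AL44, 1.86 in AL46, 3.24 in AL49, 1.78 in AL52 and 3.39 in AL63. BI36 was the lowest of all 10 pigs, and the interval from 6.61 to 45.1 was empty. The low set rested on 2 to 7 reads per pig, 5 of its 6 pigs on 3 or fewer, while the high set had 45 to 93 reads. The means were 55.5 ± 36.8 in BI and 3.38 ± 1.96 in AL (SD, n = 5 each). The AL minus BI difference on the log2 scale was -3.11, and -4.04 without BI36. STMN2, SNAP25 and TUBB3, which mark neurons, were at 0 in every pig, and the summed nerve markers (5 of 6 found in the table) stayed at 0 to 0.889 in AL and 0 to 1.65 in BI. With so few reads on any nerve marker, the part of nerve RNA in the STMN3 values was not tested.

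C2CD3 had the widest range of the 3807 genes that passed the filter on low values on the log2(normalised count + 1) scale, 6.66. This rank rests on its values near 0, since with a pseudocount of 10 its range was 3.46, below those of ENSSSCG00000032599 (5.18), CNNM3 (5.10) and WDR91 (4.28). In AL the normalised count ran as 38.7 in AL44, 100 in AL46, 9.71 in AL49, 3.56 in AL52 and 23.8 in AL63, against 3.29 in BI25, 1.10 in BI34, 2.59 in BI36, 1 in BI37 and 0 in BI42. All AL pigs lay above all BI pigs, but by little at the border, since AL52 and BI25 had 4 reads each. The 0 of BI42 allows a normalised count of up to 3.17 at its depth. Within AL the highest pig was 28.2 times the lowest, and the levels of the 5 AL pigs formed a ladder rather than a pair of sets. The means were 35.2 ± 38.9 in AL and 1.60 ± 1.32 in BI (SD, n = 5 each), a log2 difference of 3.24.

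These 3 genes, the pair with the widest gaps between pigs and the gene whose range was widest with a pseudocount of 1, are shown with the 250 bases before their RefSeq start, so that what lies at their promoters can be seen (RefSeq annotation release 106, genome build Sscrofa11.1). All 3 genes lie on the minus strand and the sequences are written 5′ to 3′ along the gene. The windows are chr3:56812117-56812366 for CNNM3, chr17:62609852-62610101 for STMN3 and chr9:8512844-8513093 for C2CD3. The C2CD3 window lies inside another gene, PPME1, which begins at 8512791 on the opposite strand. CNNM3 has 6 RefSeq transcripts, and only the outer border of the gene was used as its start. Capitals mark every match, on either strand, to 4 motifs. These were the E-box, spelled CANNTG, the GC box, spelled GGGCGG, the TATA box, spelled TATAAA, and the CCAAT box, named for its own letters.
CNNM3: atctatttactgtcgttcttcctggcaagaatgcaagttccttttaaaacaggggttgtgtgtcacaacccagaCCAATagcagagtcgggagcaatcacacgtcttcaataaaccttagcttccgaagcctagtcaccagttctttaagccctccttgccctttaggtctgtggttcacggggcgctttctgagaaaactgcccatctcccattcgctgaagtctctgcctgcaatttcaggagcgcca
STMN3: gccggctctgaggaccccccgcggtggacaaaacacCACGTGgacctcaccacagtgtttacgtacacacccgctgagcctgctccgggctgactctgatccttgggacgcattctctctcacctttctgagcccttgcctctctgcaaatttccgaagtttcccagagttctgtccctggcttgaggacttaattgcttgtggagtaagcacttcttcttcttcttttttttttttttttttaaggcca
C2CD3: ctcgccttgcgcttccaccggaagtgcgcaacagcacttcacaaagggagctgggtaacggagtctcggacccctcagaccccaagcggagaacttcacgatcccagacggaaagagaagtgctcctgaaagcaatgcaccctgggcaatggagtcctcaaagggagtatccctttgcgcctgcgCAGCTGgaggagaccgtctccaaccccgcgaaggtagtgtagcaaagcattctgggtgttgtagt
The CNNM3 window held 1 CCAAT box, 176 bases before the start, and none of the other 3 motifs. The STMN3 and C2CD3 windows held 1 E-box each, at 214 and 65 bases before the start. Among 19569 promoter windows of the same length, 61.9% held an E-box, 31.9% a CCAAT box, 45.9% a GC box and 9.77% a TATA box. The windows had 8, 9 and 14 CpG dinucleotides in the same order, against a median of 12 over all windows. The 3 windows thus shared none of the motifs across all of them, and a match of these letters is a description of the sequence only.

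SCARF1 was low in every pig and lower in BI. Its normalised count was 4.72 in AL44, 35.3 in AL46, 14.0 in AL49, 20.5 in AL52 and 26.0 in AL63, against 0.824 in BI25, 0 in BI34, 2.59 in BI36, 4.01 in BI37 and 3.17 in BI42. The largest gap, from 4.72 to 14.0, set AL46, AL49, AL52 and AL63 above AL44 and the BI pigs, which is the same division of pigs as for CNNM3. The breeds did not overlap, yet AL44 (5 reads) and BI37 (4 reads) were within counting error of each other. The 0 of BI34 allows up to 3.30. The means were 20.1 ± 11.6 in AL and 2.12 ± 1.66 in BI (SD, n = 5 each), a log2 difference of 2.74 that was 3.15 without AL44. The summed endothelial markers (4 of 6 found in the table, PECAM1, CDH5, KDR and TEK) were 3.24 to 16.7 in AL and 2.20 to 9.88 in BI, with AL46 highest for both the markers and SCARF1. KDR had 1 read in all, and the part of endothelial RNA in the SCARF1 values was not tested.

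SRARP was at a similar level in 4 AL pigs and several times higher in the fifth. Pig by pig, the normalised count was 13.2 in AL44, 19.5 in AL46, 16.2 in AL49, 71.2 in AL52 and 15.8 in AL63, against 3.29 in BI25, 2.20 in BI34, 5.17 in BI36, 0 in BI37 and 6.34 in BI42. Every AL pig exceeded every BI pig, with 14 reads in the lowest AL pigs and 6 reads in the highest BI pigs. The 0 of BI37 allows up to 3.01. The means were 27.2 ± 24.7 in AL and 3.40 ± 2.49 in BI (SD, n = 5 each), a log2 difference of 2.65. Without BI37 this difference was 2.19, the lowest value on leaving out any single pig.

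WDR91 differed between the breeds on average while AL52 stayed among the BI pigs. Normalised counts of 51.9 in AL44, 292 in AL46, 72.3 in AL49, 20.5 in AL52 and 130 in AL63 stood against 24.7 in BI25, 5.51 in BI34, 19.0 in BI36, 10 in BI37 and 22.2 in BI42. AL52 lay below BI25 and BI42, and the other 4 AL pigs lay above all BI pigs. The means were 113 ± 108 in AL and 16.3 ± 8.19 in BI (SD, n = 5 each), a log2 difference of 2.37 that was 2.85 without AL52 and 1.90 without AL46.

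ENSSSCG00000032599 was the only member that was well counted in every pig, with 55 to 2580 reads. Its normalised count was 300 in AL44, 356 in AL46, 248 in AL49, 48.9 in AL52 and 318 in AL63, against 2125 in BI25, 675 in BI34, 454 in BI36, 534 in BI37 and 497 in BI42. All BI pigs lay above all AL pigs. A low AL pig, AL52, and a high BI pig, BI25, each stood away from the rest of their breed. The means were 254 ± 121 in AL and 857 ± 714 in BI (SD, n = 5 each). The log2 difference was -1.74, and -1.21 without AL52. The identifier was not paired with a symbol or a position, so nothing is said of its function.

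Among the members whose length was known, the order of levels per kilobase of the longest RefSeq transcript differed between the breeds. In AL, the mean normalised count per kilobase was 65.5 for CNNM3, 42.1 for WDR91, 19.9 for SRARP, 4.51 for C2CD3, 3.14 for SCARF1 and 1.74 for STMN3. In BI it was 28.6 for STMN3, 6.04 for WDR91, 2.95 for CNNM3, 2.49 for SRARP, 0.330 for SCARF1 and 0.204 for C2CD3. STMN3 was thus the lowest of these 6 genes in AL and the highest in BI. In AL no gene differed from the next in this order by more than the summed SDs of both. In BI only STMN3 and WDR91, and SRARP and SCARF1, did so.

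The members' spread was large beside that of other genes, as their choice required. The range from lowest to highest pig was 5.18 (SCARF1), 5.25 (STMN3), 5.41 (ENSSSCG00000032599), 5.49 (WDR91), 6.17 (SRARP), 6.24 (CNNM3) and 6.66 (C2CD3) on the log2(normalised count + 1) scale. Over the 3807 genes tested the median range was 1.42 and the 95th percentile 3.29. A range above 5 was held by 36 genes, of which 7 were members, so 29 other genes varied as widely. All 7 members passed the filter, a summed normalised count of at least 50 in 1 breed or more, which each could do through the breed where it was high.

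**Figure D2:**
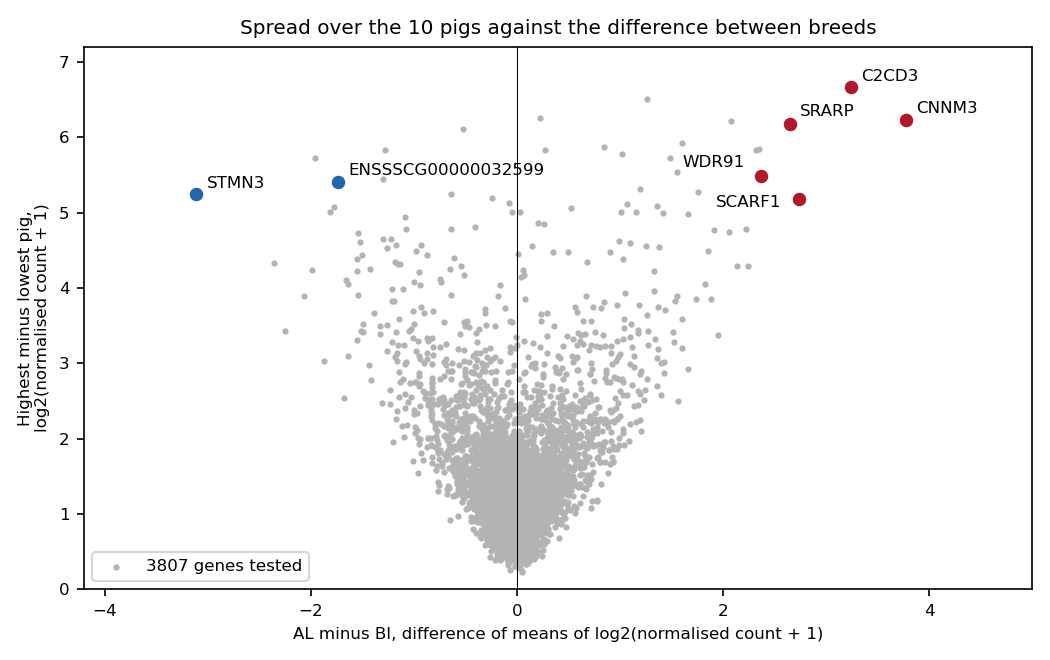
Range over the 10 pigs (highest minus lowest, log2 scale) against the AL minus BI difference of means for the 3807 genes tested, in grey, with the 7 members coloured by the breed of higher mean. The members sat at ranges of 5.18 to 6.66, with CNNM3 the rightmost point at 3.78 and STMN3 the leftmost at -3.11.

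Much of this variation lay between pigs of the same breed. The difference between breeds took 45.8% (ENSSSCG00000032599) to 70.2% (SCARF1) of a member's sum of squares over the 10 pigs, and 57.6% for CNNM3 and 55.8% for STMN3. The rest was spread among animals of 1 breed. The within-AL range reached 5.73 for CNNM3 and 4.48 for C2CD3, and the within-BI range 5.25 for STMN3. By contrast STMN3 ranged over 1.45 in AL, and CNNM3 over 2.24 in BI. On this scale the breed with the higher mean also had the wider range for CNNM3, STMN3, C2CD3, SCARF1 and WDR91. For SRARP (2.34 in AL, 2.88 in BI) and ENSSSCG00000032599 (2.84 in AL, 2.22 in BI) it was the breed with the lower mean.

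The breeds did not overlap for 4 of the 7 members, C2CD3, SCARF1 and SRARP with AL above BI and ENSSSCG00000032599 with BI above AL. Over all 3807 genes tested, 1.08% had every AL pig above every BI pig and 0.762% the reverse. Because the members were picked on these very values, nothing is read from that difference. Leaving out any single pig kept the sign of each member's breed difference. For the 4 members without overlap the sign could not have changed. The ranges were 3.39 to 4.82 for CNNM3, 2.68 to 3.80 for C2CD3, 2.38 to 3.15 for SCARF1, 2.19 to 2.91 for SRARP and 1.90 to 2.85 for WDR91. The same ranges were -4.04 to -2.72 for STMN3 and -1.92 to -1.21 for ENSSSCG00000032599.

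The genes did not all share 1 set of pigs, although CNNM3 and SCARF1 had the same 4 pigs above their largest gap. AL46 was the highest pig for CNNM3, C2CD3, SCARF1 and WDR91 and the second highest for SRARP. AL52 was the highest for SRARP and the second highest for CNNM3, yet the lowest AL pig for C2CD3 and WDR91 and the lowest of all for ENSSSCG00000032599. AL44 was the lowest AL pig for CNNM3, SCARF1 and SRARP but the second highest of all for C2CD3. The exception among AL pigs was thus AL44 for CNNM3 and AL52 for WDR91, and CNNM3 and WDR91 placed AL52 at rank 2 and rank 7 of 10.

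The BI pigs likewise changed places from gene to gene. BI34 was the highest pig for STMN3 and the lowest for SCARF1 and WDR91, BI25 the highest for ENSSSCG00000032599, BI37 the lowest for SRARP and BI42 the lowest for CNNM3 and C2CD3. BI36, the exception for STMN3, was ranked 7 to 9 of 10 for CNNM3, C2CD3, SCARF1, SRARP and WDR91, inside the BI range for each. AL46 led 4 of the 7 genes, and among the AL pigs it also had the highest sums of fibre (33791), fibroblast (103), endothelial (16.7), adipocyte (28.8) and erythrocyte (10.2) markers. Some of these leads were small, with a fibre sum of 33693 in AL63 and an erythrocyte sum of 7.55 in AL44. Among the adipocyte markers ADIPOQ had 3 reads and LEP 1 read over the 10 pigs. The part of cell content in the AL46 values was not tested.

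**Figure D3:**
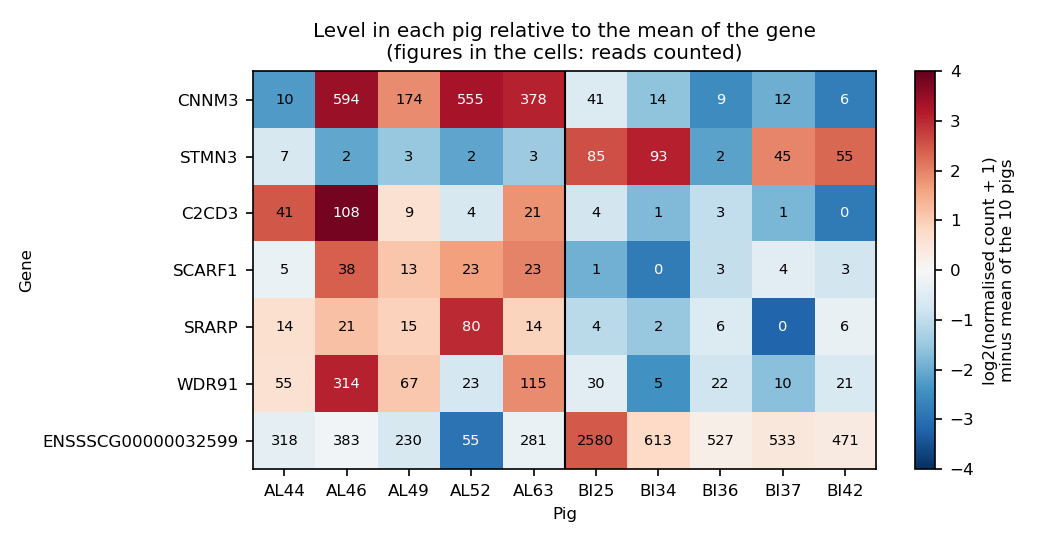
Level of each gene (rows) in each pig (columns) relative to the mean of the gene over the 10 pigs, on the log2(normalised count + 1) scale, red above and blue below, with the reads counted written in each cell and a line between AL and BI. AL46 was the reddest column for 4 genes with 594, 108, 38 and 314 reads, while AL44 was blue for CNNM3 with 10 reads and red for C2CD3 with 41.

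C2CD3 and WDR91 had the highest Pearson's r among the members, 0.87, with Spearman's rho of 0.81 over the 10 pigs. SCARF1 and SRARP had the highest rho, 0.82, with r of 0.71. CNNM3 and SCARF1 gave 0.82 and 0.67, and CNNM3 and C2CD3 only 0.58 and 0.65. STMN3 ran against the 5 genes higher in AL, with r from -0.60 with CNNM3 to -0.79 with SCARF1. Its rho was weaker, -0.32 with CNNM3, -0.30 with WDR91, -0.45 with C2CD3, -0.60 with SCARF1 and -0.66 with SRARP. With ENSSSCG00000032599 it gave 0.68 and 0.71. These coefficients describe the same 10 libraries, and any pair of genes that differ between the breeds shares that difference, so no p-value is attached.

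For each member the 3 most similar of the tested genes were found by Pearson's r over the 10 pigs. CNNM3 was most like IRF2BP2, CBX1 and DAAM2, with r of 0.95 for each. These genes moved over a far narrower range, IRF2BP2 from 26.4 to 105 in AL and from 31.0 to 49.6 in BI. STMN3 was most like ENSSSCG00000033597 (0.88), the dynein heavy chain gene DNAH11 (0.86) and TMEM138 (0.84), and TMEM138 was 7.44 to 16 in AL and 19.0 to 33.1 in BI. C2CD3 was most like IPP (0.92), the vascular growth factor gene VEGFA (0.88) and SNX22 (0.88). SCARF1 was most like WIPF3, PTGES2 and MUS81, each with 0.92.

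SRARP was most like CPM (0.90), the growth factor gene BMP6 (0.89) and MVB12B (0.89). WDR91 was most like THRA (0.91), which encodes a thyroid hormone receptor, RUVBL1 (0.89) and ENSSSCG00000040253 (0.88). THRA was 2249 to 5106 in AL and 1509 to 2698 in BI. ENSSSCG00000032599 was most like SMARCD1 (0.91), RFXANK (0.87) and ENSSSCG00000035572 (0.85). No gene was among the 3 of more than 1 member. The coefficients were the highest of 3807 and describe likeness over 10 pigs, with no test.

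The question whether the surroundings of the genes moved with them was put to the neighbours, which were chosen by position and not by level. In all, 6 members had a RefSeq position. CNNM3 lies at chr3:56792389-56812116, STMN3 at chr17:62600450-62609851, C2CD3 at chr9:8393610-8512843 and SCARF1 at chr12:47844732-47860443, all on the minus strand. SRARP, listed in RefSeq under its older name C6H1orf64, lies at chr6:75159923-75162822, and WDR91 at chr18:14092265-14124127, both on the plus strand. Within 50 kb of these 6 genes lay 35 other genes, 23 of them paired with an identifier of the table and 7 counted well enough to be tested.

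None of the 7 neighbours passed an adjusted p of 0.05 in the limma fit over all genes, and none did so with edgeR, DESeq2 or limma-voom on the recovered reads. Of the 3807 genes, 0.0263% passed, 1 gene higher in BI (INTS11, named after its value was seen). That number was 41 without AL44 and 55 with DESeq2. At an unadjusted p under 0.05 there were 358 genes over the table and 1 of the 7 neighbours, UCP3. UCP3, an uncoupling protein of muscle mitochondria 4157 bases from C2CD3, had a normalised count of 20.8 in AL44, 7.44 in AL46, 9.71 in AL49, 5.34 in AL52 and 11.3 in AL63. In BI it was 8.24 in BI25, 3.30 in BI34, 2.59 in BI36, 8.02 in BI37 and 1.06 in BI42. The breeds overlapped, and AL44 rather than AL46 was the highest pig. Its AL minus BI difference was 1.17 ± 0.50 (log2, standard error; adjusted p = 0.473, limma with Benjamini-Hochberg adjustment).

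The other neighbours lay closer to 0. Beside SCARF1, the amino acid transporter SLC43A2 differed by 0.56 ± 0.30 (adjusted p = 0.611) and the splicing factor PRPF8, 597 bases upstream, by 0.20 ± 0.39 (adjusted p = 0.914). Beside STMN3, the differences were 0.32 ± 0.28 for ZGPAT and 0.22 ± 0.25 for SLC2A4RG (adjusted p = 0.777 and 0.840). ZBTB17 beside SRARP gave 0.26 ± 0.32 (adjusted p = 0.853), and TMEM140 beside WDR91 -0.06 ± 0.30 (adjusted p = 0.965). The median over the 7 neighbours was 0.26, against -0.02 over all genes tested. The standard errors were 0.25 to 0.50, and even the 1.17 ± 0.50 of UCP3 did not pass the adjusted threshold. Differences of a neighbour well above its standard error could therefore be missed.

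CNNM3 had no neighbour with enough reads. Its relative CNNM4, 2706 bases away on the same strand, had 1 read in the AL pigs together and 5 in the BI pigs, while CNNM3 had 1711 and 82. SEMA4C had 3 and 2 reads. ANKRD23, a muscle ankyrin repeat gene 11165 bases away, was listed with 0 reads in all pigs. RTEL1, 1992 bases from STMN3 on the opposite strand, had 9 reads in AL and 10 in BI, against 17 and 280 for STMN3. Among the neighbours on the strand of STMN3 that were too low to be tested, 3 had more reads in BI than in AL. They were GMEB2 at 4569 bases (26 in AL, 51 in BI), ARFRP1 (13 and 31) and ZBTB46 (18 and 33). SRMS, also on that strand, had more in AL (4 and 1). All of these are sums of reads, not adjusted for depth. BI36, low for STMN3, was at 9.48 for GMEB2, within 6.59 to 14.0 over the BI pigs. C2CD3 and SCARF1 overlap other genes in RefSeq. C2CD3 overlaps the start of PPME1 on the opposite strand, which had 6 reads in AL and 8 in BI. On its own strand C2CD3 overlaps the long non-coding RNA gene LOC110255397, and SCARF1 overlaps RILP on the same strand. Neither LOC110255397 nor RILP was paired with an identifier. Reads in these overlaps may belong to either gene.

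The relatives and partners of the members were taken from 5 gene lists. Of 17 list genes that could be tested, none passed the adjusted p of 0.05 with limma, edgeR, DESeq2 or limma-voom, and none had an unadjusted p under 0.05. Of their differences 9 lay above and 8 below 0, and their median difference was 0.06 beside -0.02 for all genes. In the list for CNNM3, 5 of 16 genes were tested. PTP4A2 and PTP4A3, the phosphatases that cyclin M proteins bind, differed by 0.07 ± 0.19 and -0.07 ± 0.28 (adjusted p = 0.939 and 0.954). The magnesium transporters SLC41A3, NIPA1 and NIPA2 gave -0.06 ± 0.22, -0.13 ± 0.44 and 0.32 ± 0.27 (adjusted p = 0.950, 0.946 and 0.761).

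In the list for STMN3, 5 of 15 genes were tested, all microtubule proteins. MAP1B differed by -0.42 ± 0.53, MAP4 by 0.28 ± 0.28, KIF2A by -0.15 ± 0.21, MAPRE2 by -0.13 ± 0.25 and MAPRE3 by 0.11 ± 0.37 (adjusted p from 0.813 to 0.946). The stathmins STMN2 and STMN4 were at 0 in every pig. Of the 13 centriole and cilium genes found for C2CD3 only IFT20 was tested, at 0.00 with a standard error of 0.16 (adjusted p = 0.999).

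For SCARF1, 3 of 10 scavenger receptors in the table were tested. SCARB2, a lysosomal member, had the largest difference of all 17 list genes, 0.92 ± 0.47 (adjusted p = 0.576), with overlapping breeds at 4.45 to 23.8 in AL and 2.11 to 9.91 in BI. STAB1 gave -0.12 ± 0.25 and MEGF11 0.29 ± 0.32 (adjusted p = 0.915 and 0.834). For WDR91, RAB7A gave 0.17 ± 0.18, RAB5C 0.49 ± 0.35 and ATG14 0.06 ± 0.19 (adjusted p = 0.821, 0.703 and 0.944). RAB7A, the partner of WDR91, stayed within 76.2 to 94.9 in AL and 58.1 to 94.7 in BI, where WDR91 itself ran from 20.5 to 292 and from 5.51 to 24.7.

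**Figure D4:**
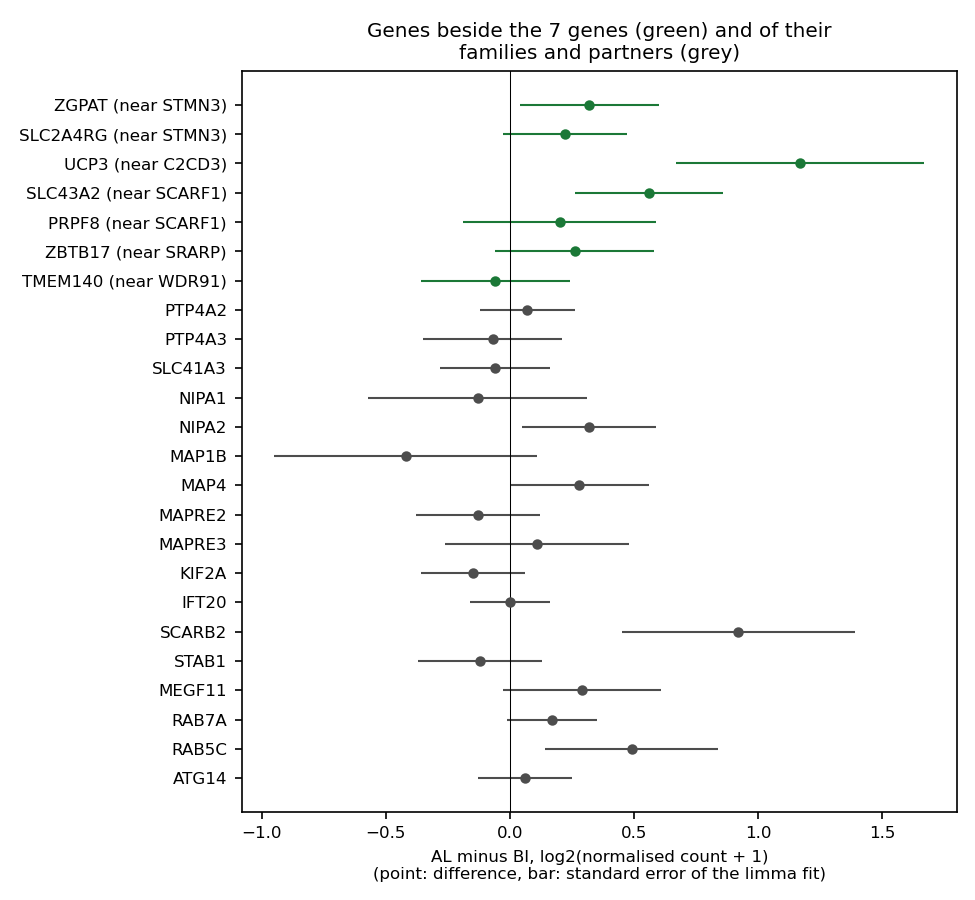
AL minus BI difference on the log2(normalised count + 1) scale with its standard error from the limma fit, for the 7 tested neighbours (green) and the 17 tested family and partner genes (grey). Apart from UCP3 at 1.17 and SCARB2 at 0.92 all points lay between -0.42 and 0.56, and none passed the adjusted p of 0.05.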

How the data were processed

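RNA from 10 muscle samples, 1 library per pig, was sequenced after a stranded preparation. After trimming with Trim Galore 0.5.0, the authors mapped reads on Sscrofa11.1 with HISAT2 2.1.0 and Ensembl release 94, counted them per gene (HTSeq 0.11.1) and divided the counts by DESeq2 size factors. The strand setting of the counting was not given in the sources used here. The 2298045 to 3343194 reads counted on genes per pig were far fewer than the paper's average of sequenced reads per sample. Whether reads were counted on the strand of their gene was not tested. The value of any gene, members included, may therefore hold reads from the opposite strand. The deposited values are thus a signal in normalised counts, not raw reads. The authors also deposited log2 fold changes, a score (Wald statistic and standard error) and p-values of their own AL against BI comparison, and none of these was used.

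Every value of a pig was a whole multiple of its smallest step within 0.01, so whole reads were recovered for 100% of values. Genes with a summed normalised count of at least 50 in 1 breed or more were kept (3807 of 25880). AL and BI were compared on log2(normalised count + 1) with limma 3.58.1 (trend, Benjamini-Hochberg adjustment over all genes kept, threshold 0.05), two-sided, with 5 pigs per breed in 1 fit and no covariate. Fold changes on this scale understate those of low genes. The steps were tested on simulated data. Alternatives were edgeR 4.0.16, DESeq2 1.42.0 and limma-voom on the recovered reads, other filters and pseudocounts, library sizes without the 10 highest genes, and each pig left out. R 4.3.3 and Python 3.11.15 were used.

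The 7 members and the gene lists were chosen with earlier results of these data known, so the members carry no test. Named genes are the members, genes within 50 kb in RefSeq release 106 on Sscrofa11.1 (borders may differ from Ensembl), list genes that passed the filter and the 3 genes most like each member. Symbols were paired with 14857 of the 25880 identifiers. Pairs of pigs of a breed differed more than sampling noise (9.73 to 49.0 chi-square units per degree of freedom), so none was counted as a repeat. Precision from 2298045 to 3343194 reads per pig is given as Poisson intervals (exact, 95%) and a floor of 3 reads, for counting error only. The list for SRARP is not reported here, and counts over list genes leave it out.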

Additional observations from a re-analysis of the deposited data

Results flagged for a closer look

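A pig was set apart where its gap to the nearest pig of its breed exceeded 0.71 of the breed's whole range (Dixon's criterion for 5 samples). Gap and range were taken here on normalised counts, not on the log2 scale used above. In 104 groups (52 genes named in the text, 2 breeds) 9 pigs were found. Chance sets apart about 1 in 20 groups only for normally distributed values of genes not chosen by their values. Whether the normalised counts were so distributed was not tested, so this rate may not hold here. The members and the genes most like them were chosen by these values. For them the criterion is a description and no test. Among the members, SRARP in AL52 (71.2, other AL pigs 13.2 to 19.5) and ENSSSCG00000032599 in BI25 (2125, other BI pigs 454 to 675) met it. The split of CNNM3 and STMN3 did not meet it on normalised counts. The criterion was not applied on the log2(normalised count + 1) scale, where low pigs stand further apart. There AL44 was at 3.38 for CNNM3 (other AL pigs 7.56 to 9.11). BI36 was at 1.45 for STMN3 (other BI pigs 5.53 to 6.69). AL52 was at 5.64 for ENSSSCG00000032599 (other AL pigs 7.96 to 8.48). Among the family and partner genes, PTP4A3 was at 158 in AL63 (others 64.7 to 77.4) and at 149 in BI34 (others 66.7 to 83.4). STAB1 was at 2113 in BI36 (others 861 to 1051), RAB5C at 15.4 in BI34 (others 6.34 to 8.02) and MEGF11 at 6.01 in BI37 (others 14.8 to 18.1). Among the genes most like a member, IPP was at 5.17 in BI36 (others 1 to 1.65) and RUVBL1 at 78.3 in AL52 (others 121 to 126).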

How the results depend on the processing

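The members' breed differences kept their sign under every alternative tried for them. Where the breeds did not overlap, the sign could not change with a pig left out or another pseudocount. With a pseudocount of 10 in place of 1 the members' differences shrank for the genes of few reads, to 1.58 for C2CD3, 1.23 for SCARF1, 1.31 for SRARP and -1.98 for STMN3, whose range fell to 3.26. The range over pigs of C2CD3, SCARF1 and SRARP was 3.46, 2.18 and 3.02 with a pseudocount of 10 and 9.97, 8.47 and 9.48 with 0.1, since each has a pig at 0. With 0.1 the widest gap of these 3 genes lay just above that pig, whereas the gaps of CNNM3 and STMN3 stayed between the same pigs. AL46 was the highest pig for 4 members under each alternative. No neighbour and no family or partner gene passed the threshold under the alternatives that kept it, UCP3 having adjusted p from 0.448 to 0.784 and differences from 0.50 to 1.41. Low genes fell below the filter in some. UCP3 and PRPF8 had no value with an AL pig left out or with the mean filters, MAP1B none with a BI pig left out or with the mean filters, and SCARB2 and RAB5C none without AL46 or AL63. SCARB2 had none with the mean filters. Where both breeds had to average 50, no neighbour and none of RAB5C, MAPRE2, MAPRE3, MEGF11 and NIPA1 had a value. Single genes near 0 changed sign on leaving out 1 pig, TMEM140 (-0.21 to 0.07), PTP4A3 (-0.30 to 0.13), SLC41A3 (-0.18 to 0.06), MAP1B (-0.71 to 0.07), MAPRE3 (-0.13 to 0.36), STAB1 (-0.25 to 0.11) and ATG14 (-0.04 to 0.20). NIPA1 did so too (-0.31 to 0.24), and with edgeR and DESeq2 (0.03 for both). The count of called genes over the whole table was 1, and 0 where both breeds had to average 50 or more (1513 genes), 40 without a filter (14681 genes), 2 with a pseudocount of 10 and 55 with DESeq2. It was 1 to 41 on leaving out 1 pig, 41 without AL44, 4 without AL52, 4 without BI37 and 3 without BI36. The cause was not tested. No paired analysis was possible because the AL and BI pigs share no replicate numbers. At these depths values of a few reads cannot separate a silent gene from a weakly transcribed one.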
